A study of Mus musculus with 2 samples.

Results

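Cys-loop receptor subunit genes encode the building blocks of the fast ion channels opened by GABA, glycine, acetylcholine and serotonin. The 38 genes described here were taken as a list of GABA-A, glycine, nicotinic and 5-HT3 receptor subunits, and all 38 were found by symbol among the 21938 protein-coding genes of the GENCODE M21 annotation on chromosomes 1 to 19, X and Y. They comprise 16 GABA-A, 4 glycine, 16 nicotinic and 2 5-HT3 subunit genes and lie on 12 chromosomes. The rule that defines the list uses receptor family and no measured value, and other subunit genes of these families were not analysed here. Open chromatin around them was read from DNase-seq, which cuts nuclei with DNase I and sequences the released fragment ends, so that a peak marks a short stretch of DNA the nuclease could reach.

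The tissue was midbrain from B6NCrl mice on the day of birth (age 0 days, males and females pooled, labelled healthy), in a single group of 2 biological replicates. No treatment, genotype contrast or second age was available, so the data hold no comparison between conditions. Both replicates have their own biosample but trace to one pooled donor entry, and nothing states that they came from different animals, so the spread between them may be technical. The named protocol is one for nuclei of cultured cells with a crosslinking step. Midbrain tissue holds many cell types, so an open site present in few cells and one that is weakly open in many cells cannot be told apart.

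Each Cys-loop receptor is a ring of subunits around an ion pore, with the transmitter bound outside the cell at the interface between neighbouring subunits. GABA-A and glycine receptors pass chloride and carry fast inhibition in the midbrain and brainstem, while nicotinic and 5-HT3 receptors pass cations and are excitatory. Which subunits a cell makes sets the affinity, kinetics and location of its receptors, and several subunits are used mainly outside the brain, in skeletal muscle, retina or the inner ear. DNase-seq reports accessibility of the genes and not their transcripts or proteins.

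The 2 libraries differed in yield: 228203 usable peaks in replicate 1 and 122593 in replicate 2. The authors' signal per peak, a whole number that was not scaled between libraries and is used here only to describe and rank peaks within a list, had a median of 44 in replicate 1 and 18 in replicate 2. Read depth is unknown, and intervals on shares are 95% Wilson intervals that cover counting error only. A region holding a peak of each library is called shared. The share of all protein-coding genes with a shared promoter peak was 61%. Pan-neuronal markers had one in 10 of 10 genes and midbrain identity markers in 5 of 14 (35.7%), below that share. These 5 were En1 (signal 108 and 36 in replicates 1 and 2), En2 (112 and 52), Otx2 (73 and 27), Tal1 (40 and 25) and Meis2 (106 and 28). Th, Foxa2 and Lmx1b had no promoter peak in either library. Markers of other cells had shared promoter peaks in 4 of 10 forebrain, 5 of 7 astrocyte, 4 of 8 oligodendrocyte, 1 of 6 endothelial, 0 of 7 microglial and 2 of 12 skeletal muscle genes, and their part in the results was not tested.

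Open promoters of subunit genes differed widely in base composition, and 4 promoter regions are shown first for that reason, with the sequence upstream of 1 gene that had no promoter peak. Each is given on the coding strand of its gene, from the RefSeq copy of the mouse assembly mm10, and capitals mark CG dinucleotides. The Chrna7 region spans the first annotated start (chr7:63212516-63212665, minus strand, 150 bp, 26 CG). The Chrnb1 region lies in an intron (chr11:69795376-69795545, minus strand, 170 bp, 7 CG), 360 bp from the nearest start. The Glra3 region lies just upstream of the gene (chr8:55940276-55940425, plus strand, 150 bp, 5 CG). The Gabra3 region lies in an intron (chrX:72656336-72656505, minus strand, 170 bp, 3 CG), 90 bp from the nearest start. For Chrna6 the 250 bp before the annotated 5′ end are given (chr8:27413945-27414194, minus strand, 2 CG).
Chrna7: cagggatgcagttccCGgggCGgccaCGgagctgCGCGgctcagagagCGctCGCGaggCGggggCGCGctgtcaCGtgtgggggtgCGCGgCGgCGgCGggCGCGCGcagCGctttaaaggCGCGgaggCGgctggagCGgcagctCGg
Chrnb1: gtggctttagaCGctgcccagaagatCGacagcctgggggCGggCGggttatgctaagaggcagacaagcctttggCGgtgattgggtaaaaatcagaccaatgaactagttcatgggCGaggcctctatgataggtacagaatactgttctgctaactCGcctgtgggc
Glra3: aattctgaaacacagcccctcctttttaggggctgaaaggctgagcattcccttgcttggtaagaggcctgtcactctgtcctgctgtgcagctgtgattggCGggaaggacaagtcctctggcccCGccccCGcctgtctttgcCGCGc
Gabra3: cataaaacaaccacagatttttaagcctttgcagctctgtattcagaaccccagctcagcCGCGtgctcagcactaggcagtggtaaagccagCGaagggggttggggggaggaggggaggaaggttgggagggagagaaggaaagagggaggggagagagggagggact
Chrna6: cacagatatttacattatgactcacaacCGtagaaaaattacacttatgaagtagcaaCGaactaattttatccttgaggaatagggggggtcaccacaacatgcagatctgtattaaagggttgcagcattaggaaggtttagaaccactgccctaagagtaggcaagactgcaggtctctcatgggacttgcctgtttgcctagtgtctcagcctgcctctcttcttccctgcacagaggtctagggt

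A sequence match to RE1, the element bound by the repressor REST that keeps neuronal genes off outside neurons, was found near the start of 4 subunit genes, and these sites are shown because they are the longest motif matches in the list. The RE1 consensus has 21 letters, 19 of them fixed, and was searched on both strands with up to 4 mismatches in the 1001 bp about the annotated 5′ end. In the sites below, capitals mark letters that match the consensus. The Chrnb2 site (chr3:89764454-89764474, minus strand, 1 mismatch) lay 168 bp downstream of the 5′ end in an untranslated exon. The Glra1 site (chr11:55607937-55607957, plus strand, 2 mismatches) lay 251 bp downstream and the Glra3 site (chr8:55940760-55940780, minus strand, 2 mismatches) 310 bp downstream, both in untranslated exons. The Gabrd site (chr4:155397680-155397700, plus strand, 3 mismatches) lay 422 bp downstream of the 5′ end.
Chrnb2: TTCAGCACCacGGACAGCGCt
Glra1: TTCAGCACCacGGAgAGCGtC
Glra3: TTCAGCACCtcaGACAGCtCC
Gabrd: TTCAGCACCgaGGACgGCGga

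Matches of this kind were found in 4 of 38 subunit genes (10.5%), against 270 of all 21938 protein-coding genes (1.23%). With at most 2 mismatches the counts were 3 of 38 (7.89%) and 37 of 21938 (0.169%). All 4 subunit genes with a match had a shared promoter peak, as did 206 of the 270 genes (76.3%). The site itself lay in a shared region at Glra1, overlapped the edge of one at Chrnb2, and lay outside any at Glra3 and Gabrd. A match describes letters in a window and does not show binding.

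The first question was which subunit genes had an open promoter, defined as a shared region no more than 500 bp from an annotated start of transcription (TSS) of the gene. Of the 38 subunit genes, 21 (55.3%, interval 39.7 to 69.9) met this definition, against 61% of all protein-coding genes. In replicate 1 alone, 24 of 38 had a promoter peak (63.2%) against 68.9% of all genes, and in replicate 2 alone 23 of 38 (60.5%) against 62.6%. In either library 25 of 38 had one (65.8%), against 69.6% of all genes. With the wider hotspots in place of peaks, 22 of 38 were shared (57.9%), against 62.1%. Shares near the genome-wide value are no result about the subunit genes as a list. The genes differed by receptor family: all 4 glycine, 10 of 16 GABA-A, 1 of 2 5-HT3 and 6 of 16 nicotinic subunit genes were open, and the difference between families was not tested.

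**Figure D1:**
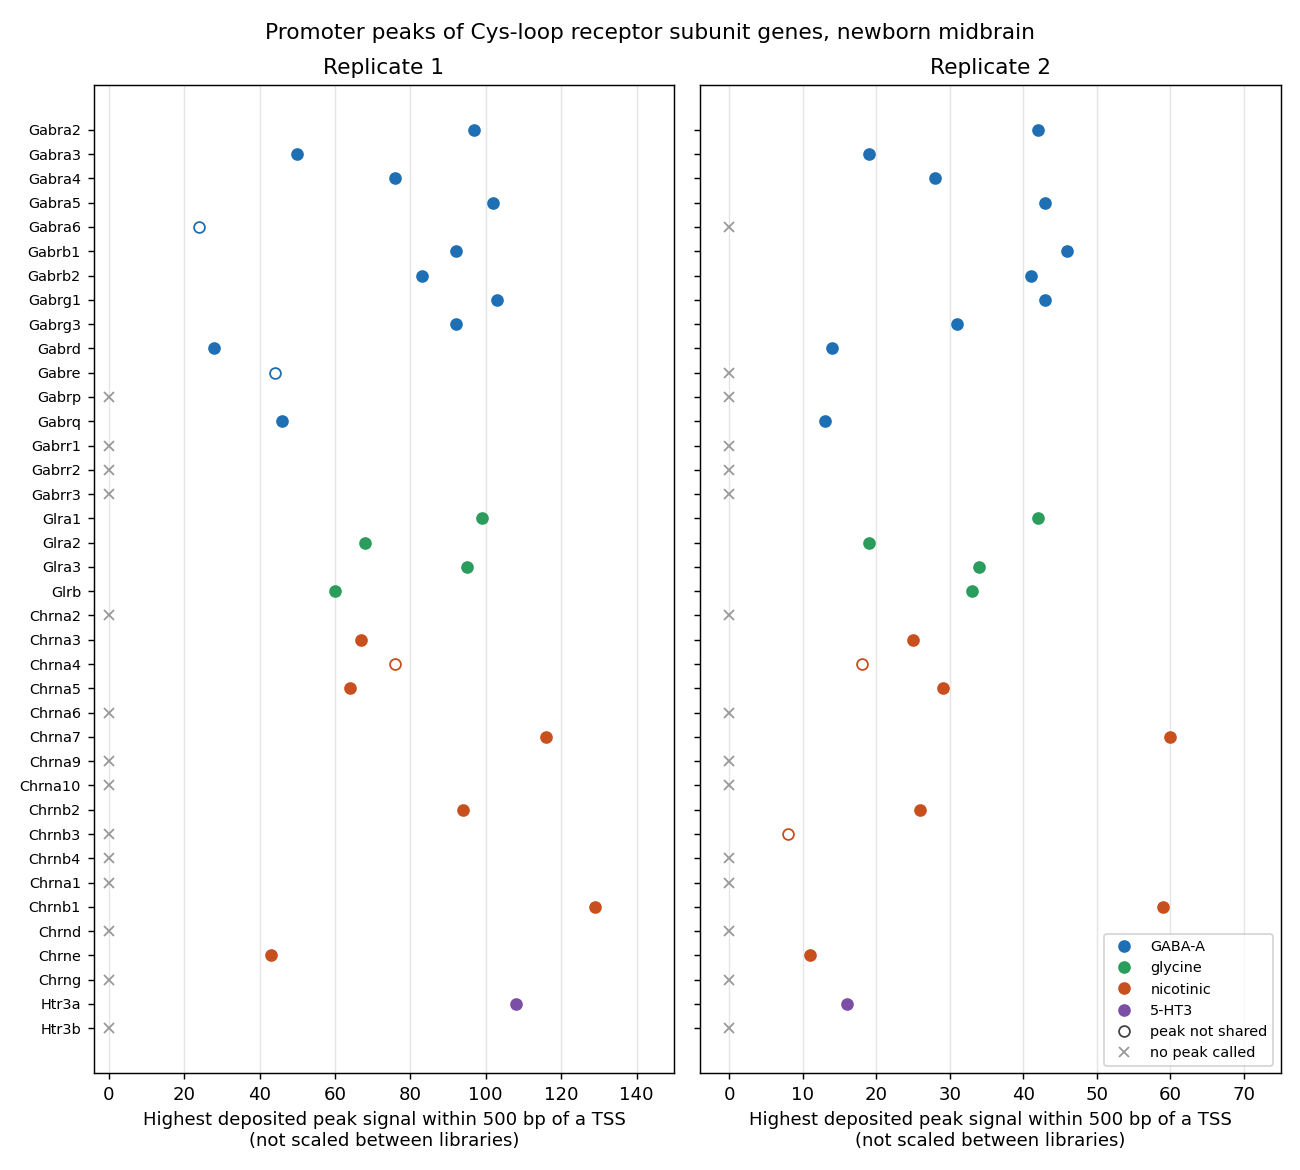
Highest deposited peak signal within 500 bp of a TSS of each of the 38 subunit genes, in replicate 1 (left) and replicate 2 (right), on separate linear axes because the signal was not scaled between libraries. Filled points have a shared promoter region, open circles a peak that is not shared, and grey crosses no called peak; Chrnb1 reaches 129 in replicate 1 and Chrna7 60 in replicate 2.

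Among GABA-A alpha subunits, which shape the GABA binding site and the response to benzodiazepines, 4 of 5 genes were open. The highest promoter signal in replicates 1 and 2 was 102 and 43 at Gabra5, whose receptors lie mostly outside synapses. It was 97 and 42 at Gabra2, an alpha subunit prominent in the newborn brain. The Gabra2 values came from different regions, 1 with 97 and 41 and 1 with 86 and 42. Gabra4 had 76 and 28, and Gabra3, a subunit used by monoaminergic neurons, had 50 and 19. Thus Gabra3 was the lowest of the 4 in both libraries. Gabra6, a subunit of cerebellar granule cells, had a promoter peak of signal 24 in replicate 1 and none in replicate 2, where the nearest peak was 72290 bp away.

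The beta subunits, which every common GABA-A receptor needs, were open in 2 of 2 genes. Promoter signals were 92 and 46 at Gabrb1 and 83 and 41 at Gabrb2 in replicates 1 and 2. The Gabrb1 values came from a second annotated start, 41.8 kb downstream, and that region also lay within 500 bp of a start of Gm38562. At the 5′ end of Gabrb1 the region had 76 and 28. The gamma subunits, which take part in synaptic clustering and benzodiazepine binding, were open in 2 of 2 genes as well. Gabrg1 had 103 and 43 and Gabrg3 had 92 and 31. All 4 of these genes were above the median of all peaks in each library. They were below the medians of 119 and 55 over all genes with a shared promoter peak.

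Of the delta, epsilon, pi and theta subunits 2 of 4 genes were open, at low signal. Gabrd, part of the extrasynaptic receptors that carry tonic inhibition, had 28 and 14 in replicates 1 and 2, and Gabrq, the theta subunit of hypothalamic and brainstem neurons, had 46 and 13. Gabrd was the lowest of all open subunit genes in replicate 1. Gabre, the epsilon subunit, had a peak of signal 44 at its TSS in replicate 1 and none in replicate 2. Gabrp, the pi subunit known mainly from peripheral tissues, had no promoter peak in either library. None of the 3 rho subunit genes, Gabrr1, Gabrr2 and Gabrr3, which are best known from retinal bipolar cells, had a promoter peak in either library.

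All 4 glycine receptor subunit genes were open. Glra1, the alpha subunit of the adult brainstem and spinal cord, had 99 and 42 in replicates 1 and 2, with its highest peak in a different region in each library. Glra3, an alpha subunit of dorsal horn neurons, had 95 and 34. Glra2, the fetal alpha subunit, had 68 and 19, and Glrb, the beta subunit that ties the receptor to gephyrin, had 60 and 33. Glra2 and Glrb were thus ordered differently in the libraries.

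Neuronal nicotinic subunits were open in 4 of 11 genes (36.4%, interval 15.2 to 64.6). Chrna7, which forms receptors of alpha7 alone, had 116 and 60 in replicates 1 and 2, the highest of the neuronal nicotinic genes in both. Chrnb2, the beta subunit of the main high-affinity nicotine receptor of the brain, had 94 and 26. Chrna3, an alpha subunit of autonomic ganglia and habenula, had 67 and 25, and its neighbour Chrna5, an accessory subunit, had 64 and 29.

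Chrna4, the usual partner of Chrnb2, had promoter peaks in both libraries that did not overlap. Replicate 1 had 6 peaks near its starts, with signals from 33 to 76, and replicate 2 had 1 of signal 18, separated by 150 bp from the nearest of them. In the wider hotspot calls, whose value is the −log10 of a q value with 100 as the strongest class, Chrna4 was shared at 100 in replicate 1 and 1.47 in replicate 2. Chrnb3 had a peak of signal 8 at its TSS in replicate 2 and none in replicate 1.

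The other neuronal nicotinic genes had no promoter peak in either library. These were Chrna2, Chrna9, Chrna10, Chrnb4 and Chrna6. Chrna6 and Chrnb3 encode partner subunits of nicotinic receptors on midbrain dopamine neurons, a small part of the cells of this tissue. Chrna9 and Chrna10 form the receptor of cochlear hair cells. With depth unknown, no called peak does not show that a promoter was inaccessible in every cell.

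Muscle nicotinic subunits were open in 2 of 5 genes. Chrnb1, the muscle beta subunit, had the highest promoter signal of all 38 genes in replicate 1 (129) and the second highest in replicate 2 (59). Its shared region lay 360 bp from the nearest start. Chrne, the adult muscle subunit, had 43 and 11, only at an internal alternative start and not at its 5′ end. That region also lay within 500 bp of a start of another gene, 4930544D05Rik, so the peak cannot be assigned to Chrne alone. Chrna1, Chrnd and Chrng, the alpha, delta and fetal gamma subunits, had no promoter peak in either library. Among skeletal muscle markers 2 of 12 had a shared promoter peak (16.7%, against 61% of all protein-coding genes). They were Mylpf (137 and 58) and Myh8 (97 and 16), while Myod1, Myog, Ckm and Acta1 had no promoter peak in either library.

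The 5-HT3 genes differed from each other. Htr3a, which can form serotonin-gated channels alone, had 108 in replicate 1, the third highest of the open subunit genes, and 16 in replicate 2, below the median of all peaks of that library. Htr3b, which needs Htr3a to form a channel, had no promoter peak in either library.

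Over the 21 open subunit genes the highest promoter signal had a median of 92 in replicate 1 and 31 in replicate 2, with ranges of 28 to 129 and 11 to 60. The same medians over all genes with a shared promoter peak were 119 and 55. Signals under the median of all peaks were found at 2 of the 21 in replicate 1 and 4 of the 21 in replicate 2, all of them among Gabrd, Gabrq, Chrne and Htr3a. Promoter hotspots of the strongest class were present at 19 of the 21 in replicate 1 and 10 of the 21 in replicate 2. More than 1 shared region lay at the promoters of 11 of the 21, up to 5 at Gabrb2. The counts under the median, of strongest hotspots and of several regions were not made over all genes with a shared promoter peak. They are therefore no result about the subunit genes as a list. Over all those genes the first quartile of the highest promoter signal was 98 in replicate 1 and 38 in replicate 2.

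CpG content of the promoters differed with the open state. The observed to expected CpG ratio, in the 1001 bp about the 5′ end, had a median of 0.588 in the 21 open subunit genes and 0.218 in the other 17. Over all protein-coding genes the medians were 0.718 with a shared promoter peak and 0.191 without. When all genes were divided into 5 equal classes by this ratio, 3 of 10 subunit genes were open in class 1, the lowest, 4 of 13 in class 2, 10 of 11 in class 3, 2 of 2 in class 4 and 2 of 2 in class 5. The shares of all genes that were open in these classes were 9.71%, 30.6%, 76.9%, 91.8% and 96.1%.

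The exceptions are few enough to name, and were picked after their values were seen. In class 1 Gabra3 (ratio 0.0905), Htr3a (0.170) and Chrne (0.177) were open, although the promoter regions of Gabra3 lay 427 and 827 bp downstream of its 5′ end and that of Chrne at an internal start. In class 3 the only subunit gene without a shared promoter peak was Gabre (0.544), which had a peak in replicate 1. The highest ratios belonged to Gabra5 (0.835) and Chrna7 (0.811), both open, and the lowest ratio of a gene that was not open to Chrna2 (0.114). The sequences above show the same range, with 26 CG in 150 bp at Chrna7 and 2 in 250 bp before Chrna6.

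**Figure D2:**
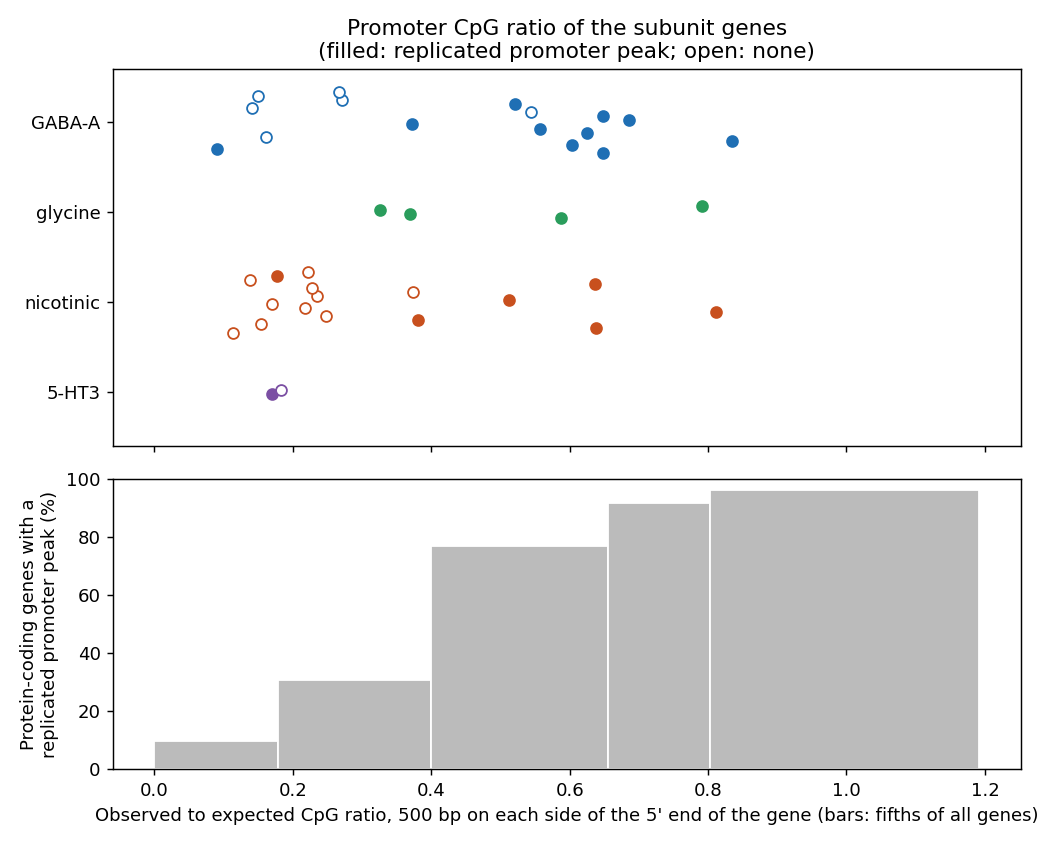
Top, observed to expected CpG ratio in the 1001 bp about the 5′ end of each subunit gene by receptor family, with filled points for genes with a shared promoter peak and open points for the others; the vertical scatter within a family has no meaning. Bottom, percentage of all 21938 protein-coding genes with a shared promoter peak in each of 5 equal classes of the ratio, from 9.71% in the lowest to 96.1% in the highest.

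The next question was how many open sites lay in and around the genes. Each gene was given a domain, its body extended by 10 kb at both ends. The 38 domains held 328 peaks of replicate 1 and 184 of replicate 2, and 120 shared regions, of which 4 lay in the domains of 2 subunit genes. Of replicate 1 peaks in the domains 36.6% overlapped a peak of the other library, against 33.5% of all replicate 1 peaks, and for replicate 2 the shares were 67.9% and 64.6%. At least 1 shared region was present in 33 of 38 domains (86.8%, interval 72.7 to 94.2), against 78.7% of all genes. The 5 domains without any were those of Gabra6, Gabre, Gabrp, Gabrr2 and Chrna10.

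The 2 genes with the most shared regions in each subfamily are named here, with ties. Per domain, Gabrb1 and Glra1 held 10 shared regions each and Gabrg3 held 9. Chrna9 and Chrna1 held 7 each, Gabrb2 and Chrnb1 6 each, and Gabra2, Gabra5 and Chrnb2 5 each. Gabrr3 and Htr3a held 4, Glra2 and Glra3 3 each, Gabrg1, Gabrq, Gabrr1 and Htr3b 2 each, and Gabrd 1. The subunit genes not named here held 4 or fewer. The median was 3 for subunit genes and 3 for all genes. Domain length was greater in subunit genes, with a median of 49.1 kb against 37.4 kb for all genes, and the median density was 3.59 shared regions per 100 kb against 4.99. Gene length had a median of 91.6 kb in the 21 open subunit genes and 20.6 kb in the other 17. This split by promoter state was not made over all protein-coding genes, so it is no result about the subunit genes as a list.

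**Figure D3:**
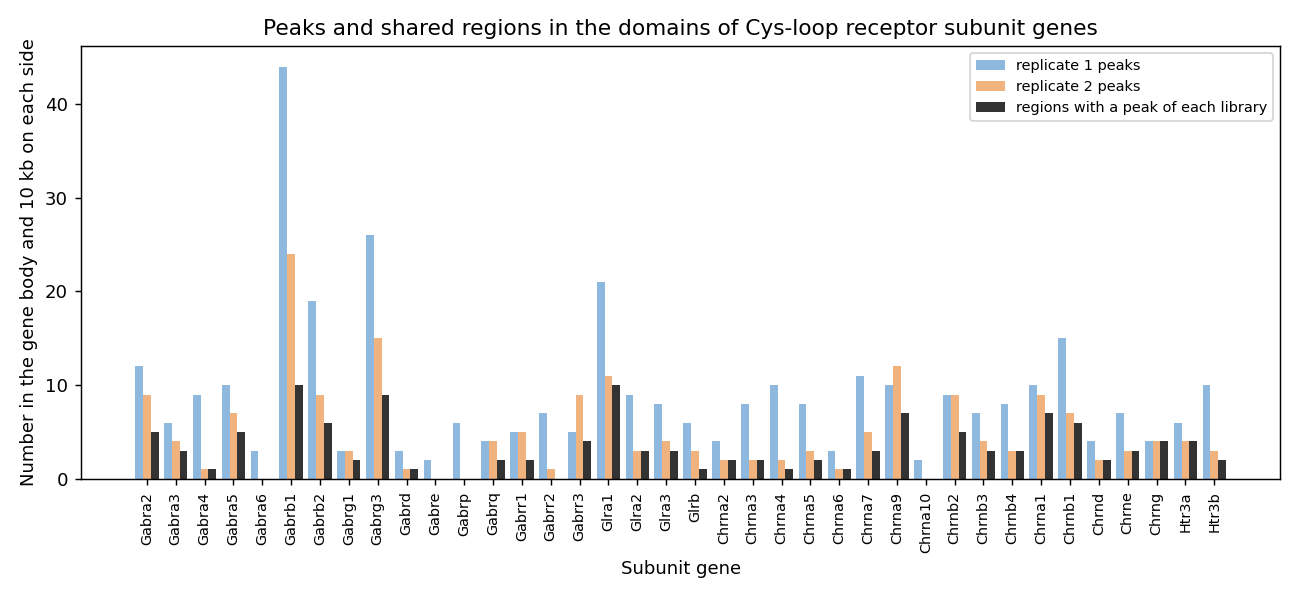
Number of replicate 1 peaks, replicate 2 peaks and shared regions in the domain of every subunit gene, from an axis that starts at 0. Gabrb1 holds 44 and 24 peaks and 10 shared regions, and Chrna9 and Gabrr3 hold more peaks of replicate 2 than of replicate 1.

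Of the 120 shared regions, 38 lay at the promoter of a subunit gene, 12 lay only at a start site of another gene, and 70 were distal, meaning over 500 bp from every annotated TSS. A distal region was present in the domains of 27 of 38 subunit genes (71.1%, interval 55.2 to 83.0), against 61.7% of all genes. Among the 70, 47 were intronic, 8 exonic and 15 between genes, 45 lay inside a subunit gene, and for 52 the nearest protein-coding TSS was that of a subunit gene. They lay within 2 kb of a subunit gene TSS in 6 cases and over 100 kb from any in 13. Their signal had a median of 76 in replicate 1 and 25 in replicate 2, against 67 and 22 for all 50993 distal shared regions.

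Promoter and distal sites did not always go together. Of the 17 genes without an open promoter, 12 had a distal shared region in their domain, while 6 of the 21 open genes had no distal region in their domain. An open promoter or a distal shared region was thus present at 33 of 38 subunit genes (86.8%), against 76.6% of all genes. Those 6 were Gabra4, Gabrd, Glra3, Glrb, Chrna5 and Chrnb2. The counts of 12 of 17 and 6 of 21 were not made over all protein-coding genes. They are therefore no result about the subunit genes as a list. All 5 muscle nicotinic genes had a distal region in their domain, although 3 of the 5 had no promoter peak and several of the regions lay in neighbouring genes.

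The 10 distal regions ranked highest by mean signal percentile over both libraries are given next, and 3 of them are printed because they are the highest that lie in or beside a subunit gene and in no other gene. The first was intronic in Chrna1 (chr2:73572636-73572805), 7.62 kb downstream of its 5′ end, with signal 121 in replicate 1 and 64 in replicate 2. The second lay 0.664 kb upstream of Gabrg1 (chr5:70843196-70843365), with 128 and 56. The fourth was intronic in Gabrg3 (chr7:57384236-57384385), 2.88 kb downstream of the 5′ end, with 99 and 50. All 3 genes are on the minus strand, and the sequences are given on that strand. Capitals mark an E-box CAGATG at Chrna1, the RFX motif GTTGCCATG at Gabrg1 and a GATA motif AGATAA at Gabrg3. The Gabrg1 region also held an E-box CAGCTG, and the Gabrg3 region a match to the CTCF consensus. Neither of these is marked.
Chrna1: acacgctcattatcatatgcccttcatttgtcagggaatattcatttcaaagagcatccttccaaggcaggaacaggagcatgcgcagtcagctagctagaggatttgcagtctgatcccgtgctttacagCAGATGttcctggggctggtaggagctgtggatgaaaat
Gabrg1: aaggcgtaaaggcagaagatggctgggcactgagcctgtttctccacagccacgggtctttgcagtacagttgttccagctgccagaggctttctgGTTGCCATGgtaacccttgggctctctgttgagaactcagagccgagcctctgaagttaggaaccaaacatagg
Gabrg3: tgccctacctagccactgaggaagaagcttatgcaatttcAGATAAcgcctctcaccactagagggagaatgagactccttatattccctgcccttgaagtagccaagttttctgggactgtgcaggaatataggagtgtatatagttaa

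The other regions of the 10 lay in introns, between genes and in exons of neighbours. Intronic ones were found in Gabra5 (chr7:57474256-57474445; 107 in replicate 1 and 41 in replicate 2), 35.7 kb from its 5′ end, in Glra1 (chr11:55518896-55519045; 93 and 46), 89.2 kb downstream, and in Gabra2 (chr5:71092576-71092745; 90 and 46), 3.19 kb downstream. One lay 5.42 kb upstream of Gabrq (chrX:72819676-72819845; 88 and 49). In the Chrnb1 domain the regions lay in an intron of the neighbour Fgf11 (103 and 50) and in a coding exon of Tmem102 (96 and 41), and in the Chrnd domain in a coding exon of Prss56 (90 and 58). A region in a domain is a position, and nothing here ties it to the subunit gene.

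Gabrb1 and Gabrg3 are the longest genes with many regions, at 491 kb and 671 kb. In Gabrb1 (chr5:71658113-72149037, plus strand) the shared region at its 5′ end was the one at Gabra4. A second annotated start, 41.8 kb downstream, carried the region with 92 in replicate 1 and 46 in replicate 2. A further 6 regions lay between 312 and 446 kb, with signals of 52 to 115 in replicate 1 and 12 to 32 in replicate 2. In Gabrg3 the regions lay at the promoter, 2.88 kb downstream, and from 336 to 441 kb, apart from 1 beyond its 3′ end.

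Glra1 held 4 shared regions at its promoter and 6 in introns, from 18.3 to 89.2 kb downstream of the 5′ end. Chrna9, without a promoter peak, held 7 shared regions within the gene, from 3.28 to 23.9 kb, 2 of them at starts of the noncoding gene 4930480C01Rik. The Chrna9 signals ranged from 33 to 110 in replicate 1 and 10 to 39 in replicate 2. Chrna1 held 2 further regions within the gene besides its strongest one, and 4 outside it, 1 of them at a start of the noncoding gene Chrna1os.

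**Figure D4:**
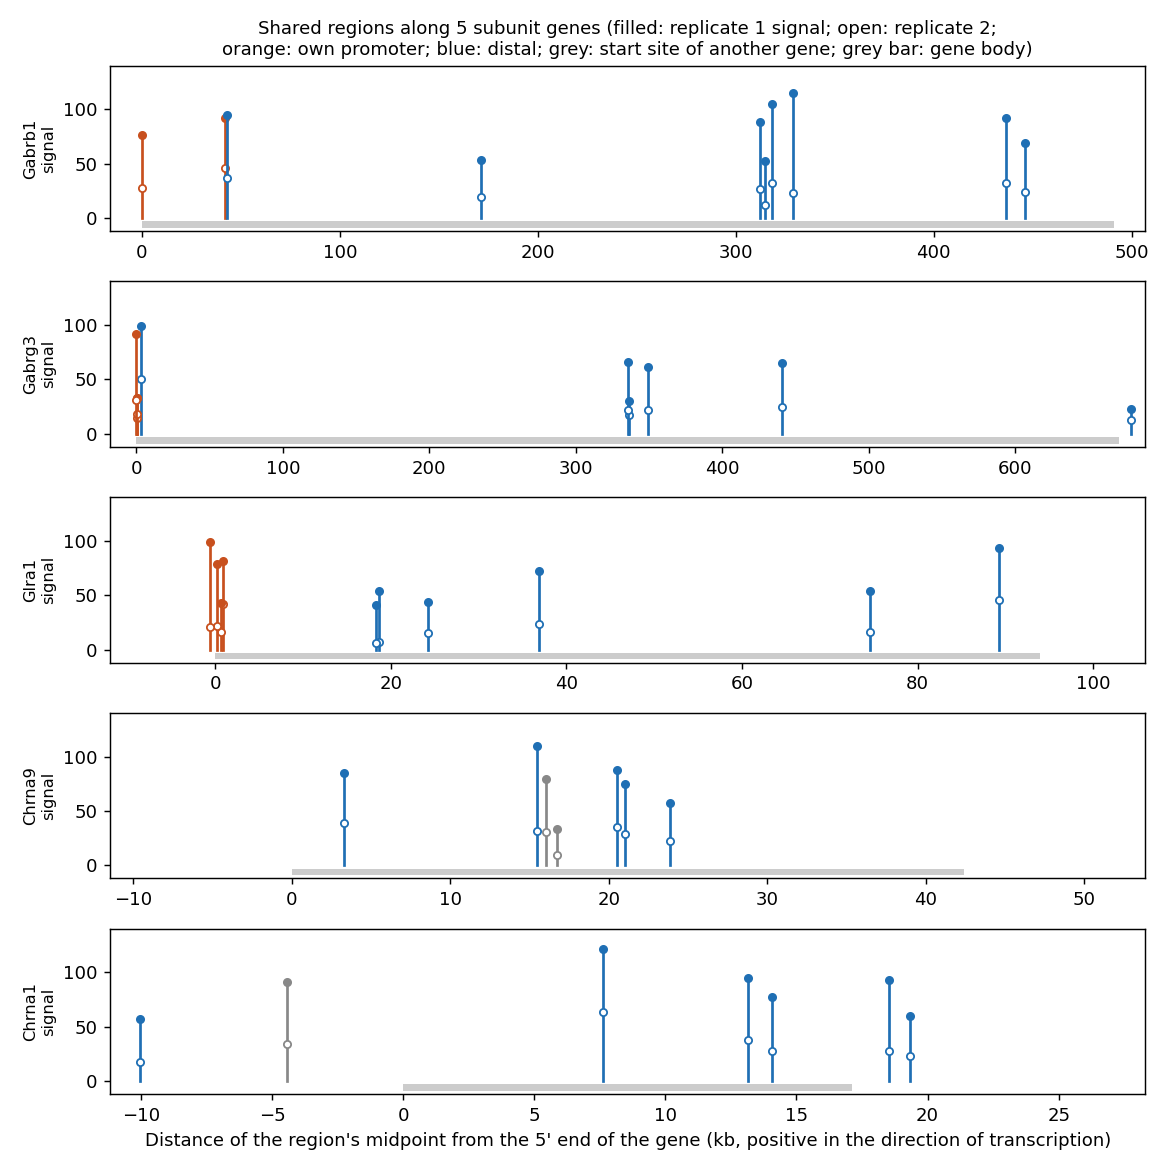
Position of shared regions along Gabrb1, Gabrg3, Glra1, Chrna9 and Chrna1, as distance in kb from the 5′ end of each gene, with the signal in replicate 1 (filled points) and replicate 2 (open points). Orange marks the gene's own promoter, blue distal regions, grey the start site of another gene, and the grey bar the gene body; Chrna9 and Chrna1 have no orange mark.

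Several subunit genes are neighbours. On chromosome 5, Gabrg1, Gabra2, Gabra4 and Gabrb1 form a cluster in which all 4 promoters were open. Gabra4 and Gabrb1 run in opposite directions and their annotated ends overlap by 196 bp. A single shared region (chr5:71657916-71658105; 76 in replicate 1 and 28 in replicate 2) lay at the starts of both, so the 2 promoters were not measured separately there.

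The nicotinic clusters were mixed. On chromosome 9, Chrna5 and Chrna3 were open and Chrnb4 was not. The domains of Chrna3 and Chrnb4 shared 2 regions, the Chrna3 promoter and a region in a coding exon of Chrna3 (85 in replicate 1 and 34 in replicate 2), and Chrnb4 had 1 intronic region of its own (99 and 19). Chrna6 and Chrnb3 on chromosome 8 were both without a shared promoter peak and shared 1 region, in an untranslated exon of Chrnb3, of low signal (40 and 7). Chrnb3 had 2 further regions 6.27 and 6.63 kb upstream (72 and 27, 57 and 20). Chrnd and Chrng on chromosome 1 had overlapping domains, no open promoter and no region in common, and 3 of the 4 regions in the Chrng domain lay at starts of Eif4e2. On chromosome 9, Htr3a was open and Htr3b was not, although Htr3b had a region 7.72 kb upstream (78 and 43).

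Motif letters in the distal regions were counted in the 150 bp about each region's midpoint, on both strands, without allowance for overlap between motifs. The RFX motif GTTGCCATG was present in 6 of 70 distal regions in subunit gene domains (8.57%), against 2.73% of all distal shared regions. These lay at Chrna1, Gabrg1, Gabrb1 and Gabrg3, the last with 2, and in the region shared by Chrna6 and Chrnb3. The E-box CAGATG was present in 15 of 70 (21.4%) against 15.3%, and the core CTCF consensus, with up to 3 mismatches, in 15 of 70 (21.4%) against 16.4%. The E-box CAGCTG (14.3% against 14.2%) and the GATA motif AGATAA (5.71% against 5.46%) were about as common in both sets. In shared regions near start sites in these domains, the GC box GGGCGG was present in 20 of 50 (40%), against 41.1% of all shared regions near start sites. In the same regions the N-box CCGGAA, an ETS-type motif known from promoters of muscle receptor genes, was present in 4% against 13.9%. Those N-box matches lay at starts of Eif4e2 in the Chrng domain, and none lay at a subunit gene promoter. The CTCF consensus was present in 14% of the regions near start sites against 7.29%, and the E-box CAGATG in 2% against 7.03%. Near start sites the E-box CAGCTG was present in 8% against 9.53%, and the GATA motif in 4% against 2.14%. The Sox motif was present there in 2% against 3.67%, and RE1 in 2% against 0.302%. The RFX motif was absent from the 50 regions (0% against 0.973%). The homeobox, NFI, AP-1, CRE and octamer motifs were absent as well, against 0.772% to 2.18%. The other distal shares were 4.29% against 2.35% for the full palindromic NFI motif, 4.29% against 2.78% for the AP-1 motif TGACTCA, and 7.14% against 7.74% for the Sox motif ACAATG. They were 2.86% against 4.06% for the homeobox motif TAATTA and 2.86% against 3.02% for the N-box. The CRE TGACGTCA was present in 1.43% against 0.343%, and the octamer ATGCAAAT in 0% against 1.08%. The GC box was present in 7.14% of the distal regions against 6.64%, and RE1 in 0% against 0.253%. The 14 motifs were chosen after the regions were known, several regions share a gene, and these shares are a description with no test.

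Genes that act with these receptors were counted from lists drawn up alongside the subunit genes. Of receptor clustering and assembly partners 16 of 17 were open (94.1%, interval 73.0 to 99.0), against 61% of all protein-coding genes. The highest signals were at Gabarapl2 (136 in replicate 1 and 70 in replicate 2), Gabarap (134 and 70) and Clptm1 (135 and 67), which act in receptor trafficking, and Lypd6b had a peak in replicate 2 only (17). Ionotropic glutamate receptor genes, the excitatory counterpart, were open in 16 of 18, from Gria2 (115 and 63) and Grin3a (121 and 56) to Grik5 with peaks that did not overlap and Grin3b with a peak in replicate 1 only.

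Metabotropic receptors for the same transmitters were open in 11 of 19 genes (57.9%), against 61% of all protein-coding genes. Gabbr1, a GABA-B subunit, had 120 in replicate 1 and 51 in replicate 2, while Chrm4, Chrm5 and Htr1a had no promoter peak in either library. Chloride and transmitter transport genes were open in 6 of 9, with the highest signal at Slc12a2, a chloride importer (112 in replicate 1 and 57 in replicate 2). Slc32a1, the vesicular transporter for GABA and glycine, had a peak in replicate 1 only (78). Neuromuscular synapse genes were open in 3 of 8, with the highest signals at Agrn (120 and 47) and Dok7 (93 and 32), while Musk and Chat had no promoter peak in either library. The difference between these lists and the subunit genes was not tested.

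**Figure D5:**
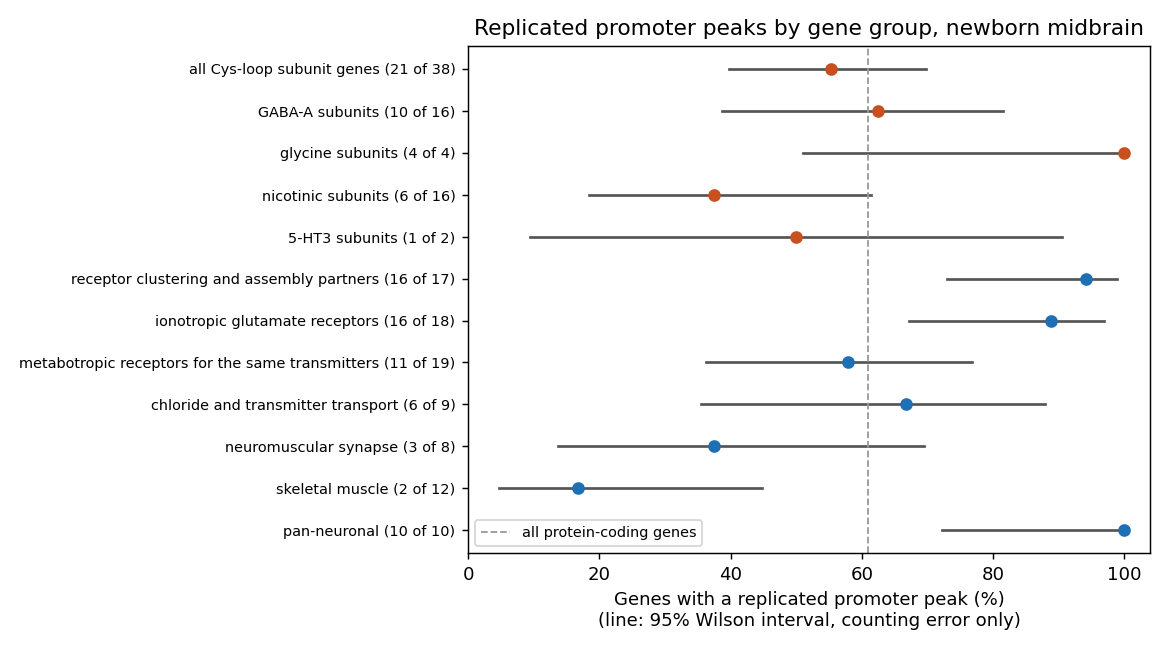
Percentage of genes with a shared promoter peak among the subunit genes and their families (orange) and related or marker lists (blue), with the count of genes in each label; lines are 95% Wilson intervals and the dashed line is the 61% of all protein-coding genes. The interval of all 38 subunit genes includes that line. Those of clustering partners, ionotropic glutamate receptors and pan-neuronal genes lie above it, and that of skeletal muscle genes lies below. The lists were chosen with earlier results known, and no difference was tested.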

How the data were processed

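Peaks and wider intervals called hotspots were deposited by the authors for each of the 2 libraries on mm10, one pair of lists from the filtered alignment of each replicate, according to the deposited text. For the aligner, the caller and their settings: not given in the sources used here. Peaks have a fixed width of 150 bp and a signal deposited by the authors, with a highest value of 149 and an unstated definition. Each hotspot carries a −log10 q value deposited by the authors, and a score, also deposited, that was not used. Read depth is unknown.

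Of 228440 and 122838 peaks in replicates 1 and 2, 228203 and 122593 were used after 215 and 221 off chromosomes 1 to 19, X and Y and 22 and 24 duplicated positions were removed. Peaks of both libraries were merged where they overlapped by at least 1 bp, and a merged region with a peak of each library was called shared, which gave 74833 regions. Gene models were those of GENCODE M21. Promoters were 500 bp on each side of any TSS, and domains extended the gene by 10 kb at both ends. Scripts in Python 3.11.15 with numpy 2.4.6 were tested on simulated intervals with known answers.

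The members and lists were chosen with earlier results of these data known. The motifs, the printed regions and the number of RE1 mismatches were chosen after values were seen. With 1 group no test between conditions exists, and counts are described beside the same count over all protein-coding genes. Every subunit gene was accounted for by rule, with the 2 genes with the most shared regions per subfamily, the 10 distal regions of highest mean signal percentile and at most 4 genes of each related list named. The alternatives changed the promoter window, the start sites used, the domain, the overlap, the peak list and the library.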

Additional observations from a re-analysis of the deposited data

How the results depend on the processing

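The number of subunit genes with an open promoter was 21 and ranged from 17 with the stronger 50% of each peak list to 22 with hotspots. It was 19 with a 100 bp window, 21 with a 1000 bp window, 20 from 5′ ends or from protein-coding transcripts only, 20 with the longer list shortened and 19 with a 50% reciprocal overlap, and 23 to 24 when a single library was used. The open share of all protein-coding genes was 61% and ranged from 55.4% with 5′ ends only to 68.9% with replicate 1 alone. With the stronger 50% of peaks it was 44.7% for subunit genes and 57.8% for all genes. Chrne was lost in 5 of them, Gabrd in 3, and Chrnb1, Gabrq and Htr3a in 1 each, while Chrna4 was gained with hotspots and with either library alone, Chrnb3 with replicate 2 alone, and Gabra6 and Gabre with replicate 1 alone. Subunit genes with a distal shared region numbered 19 with the gene body alone (50%, against 39.9% of all genes), 36 with 50 kb on each side (94.7% against 83.1%) and 38 with replicate 1 alone (100% against 80.8%). The 120 shared regions became 79 with the gene body alone and 212 with 50 kb on each side, and 172 without replicate 1 to 326 without replicate 2, where peaks of a single library are counted. No paired analysis was possible because the labels give a single group. Limits are the unknown read depth, the lower yield of replicate 2 and the mix of cell types in the tissue.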
